A study of Mus musculus with 21 samples.

Results

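The miR-34 family was followed in whole mouse kidney over 28 days after folic acid. Its 5 mature miRNAs were picked by name, with earlier results of these data known: miR-34a-5p, miR-34b-5p, miR-34b-3p, miR-34c-5p and miR-34c-3p. They are 5 of the 1125 mature miRNAs in the deposited table, and all 5 passed the filter on low reads that left 431 miRNAs for testing. The kidneys came from male BALB/c mice aged 12 weeks, given 250 mg/kg of folic acid in 0.3 M sodium bicarbonate and sampled at day 0, 1, 2, 3, 7, 14 or 28, with 3 small RNA libraries per day and 21 in all. A dose of folic acid this high injures kidney tubules and is widely used as a model of acute injury followed by fibrosis. Every group is labelled with folic acid, the day 0 group included, and whether the day 0 mice were injected is not said. No untreated group accompanies the later days, so time since folic acid cannot be told apart from vehicle, age or collection day. Since the 3 libraries of a day are not stated to be separate animals, all p-values describe the spread between libraries.

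A microRNA is cut from a hairpin precursor whose arms give a 5p and a 3p product, and the product loaded into an Argonaute protein finds target mRNAs mainly through its seed, bases 2 to 8. The miR-34 genes are textbook transcriptional targets of the tumour suppressor p53, and their 5p products repress mRNAs of cell cycle drivers and survival factors. Mir34a stands alone on one chromosome, while Mir34b and Mir34c lie on a shared primary transcript on another. miR-34b, miR-34c and the related miR-449 miRNAs are best known from multiciliated epithelia and testis, and miR-34a from a wider range of tissues.

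The mature sequences below, from RefSeq (GRCm38.p6), are shown because the seed in capitals divides the 4 members compared into 2 groups. The 5p pair comes from both loci, and the 3p pair from the shared locus of Mir34b and Mir34c alone. miR-34c-5p was not part of this comparison of sequences, and the counts that follow say nothing of its seed. The 5p arms are given first, then the 3p arms, each 5′ to 3′.
miR-34a-5p: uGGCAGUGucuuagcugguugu
miR-34b-5p: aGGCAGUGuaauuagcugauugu
miR-34b-3p: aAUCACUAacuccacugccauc
miR-34c-3p: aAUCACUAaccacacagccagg
The seed of the 5p arms occurred in 4 of 1679 mature mouse names in that table, which were miR-34a-5p, miR-34b-5p, miR-449a-5p and miR-449c-5p. The seed of the 3p arms occurred in 2, miR-34b-3p and miR-34c-3p. These 3p arms had the same base at 17 of 22 positions and differed, counted from the 5′ end with miR-34b-3p first, by U11C, C12A, U16A, U21G and C22G. Aligned without gaps, miR-34a-5p and miR-34b-5p had the same base at 11 of 22 positions. The 3p arm of the Mir34a precursor, miR-34a-3p, has another seed:
miR-34a-3p: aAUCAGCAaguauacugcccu

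On GRCm38.p6 the hairpin of Mir34a spans chr4:150068454-150068555 on the plus strand, 102 bases, and its 3′ end overlaps an exon of Gm37795, a gene model on the same strand that still awaits experimental support. miR-34a-5p lies at chr4:150068473-150068494. The hairpins of Mir34b (chr9:51103562-51103645, 84 bases) and Mir34c (chr9:51103034-51103110, 77 bases) are both on the minus strand with 451 bases between them. Both fall inside an intron of Btg4, a protein-coding gene on the opposite strand. miR-34b-5p lies at chr9:51103610-51103632, miR-34b-3p at chr9:51103574-51103595 and miR-34c-3p at chr9:51103044-51103065. The deposited table holds no positions, and the submitters' notes name another build, so these positions describe the genes and were not used for any value.

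Levels are the deposited CPM, the reads of a miRNA scaled to a common total of reads assigned to miRNAs. Between 2875675 and 7110546 such reads were recovered per library, and behind the members stood 712 to 2484 reads per library for miR-34c-5p, 229 to 1304 for miR-34a-5p, 47 to 257 for miR-34b-5p, 19 to 80 for miR-34b-3p and 10 to 78 for miR-34c-3p. A count of 0 would allow up to 3 reads, or 0.422 CPM in the deepest library and 1.04 CPM in the shallowest, counting error only. As a limited check of tissue, 6 kidney miRNAs together held 359060 to 461050 CPM in every library. Much of this was miR-10a-5p and miR-10b-5p (means of 125797 and 118224 CPM at day 0), and no other tissue was compared. Log2 changes are on the log2(CPM + 1) scale after TMM scaling, which understates the change of the scarce 3p arms. Adjusted p-values are those of limma with Benjamini-Hochberg adjustment over all 431 miRNAs, and a miRNA is said to have risen or fallen where this was under 0.05. In bulk kidney, a change in the number of cells that hold a miRNA and a change in its amount per cell cannot be told apart.

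All 5 members differed between days (F test of limma, adjusted p from 0.000566 for miR-34c-3p to 0.0213 for miR-34b-3p), as did 63.1% of all miRNAs. Against day 0, 3 of the 5 rose by day 1, where 14.2% of all miRNAs rose. At day 2, 4 of 5 rose (24.4% of all), at day 3 all 5 (30.4%), at day 7 again 4 (29.7%) and at day 14 all 5 (25.1%). At day 28 no member passed the limma test (13.0% of all miRNAs changed, 11.1% upward), with 1 member, miR-34a-5p, at an unadjusted p under 0.05 (24.6% of all), and edgeR and DESeq2 called 0 as well. No member was called lower than day 0 on any day. The median change of the 5 was 0.51 at day 1, 0.58 at day 2, 0.75 at day 3, 0.94 at day 7, 0.58 at day 14 and 0.23 at day 28, beside medians of all tested miRNAs from -0.01 to 0.07. TMM scaling itself draws these medians of all miRNAs towards 0, and library totals moved that of day 2 by 0.19. These 6 comparisons share the same 3 day 0 libraries and are not separate observations.

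**Figure D1:**
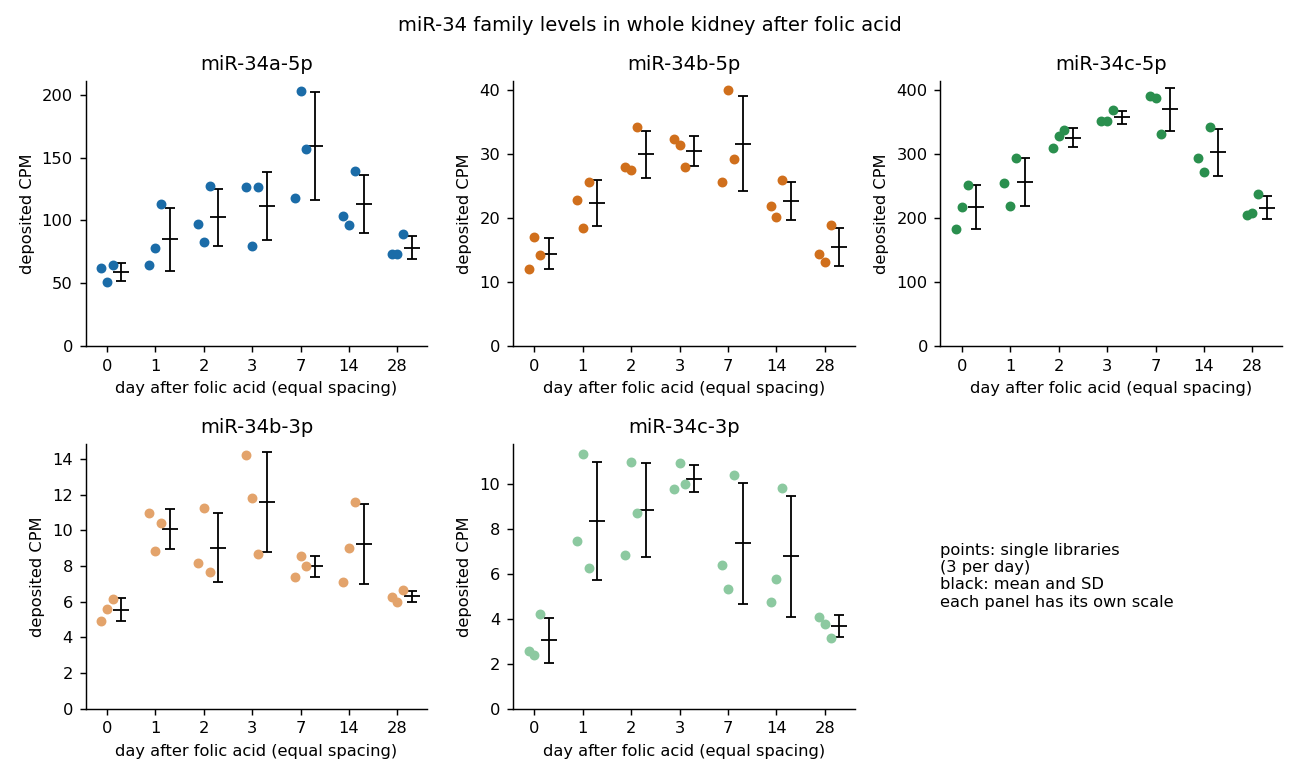
Deposited CPM (vertical axes, each starting at 0 with its own scale) of the 5 members by day after folic acid (horizontal axes, equal spacing), with a point per library and a black bar for mean and SD of 3 libraries. The 5p arms have their highest mean at day 7 and the 3p arms at day 3, and the day 28 points lie near those of day 0, with miR-34a-5p at 73.0 to 89.0 CPM above all its day 0 libraries.

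miR-34a-5p, the member made from its own locus, had the largest fitted change of the 5p arms at day 7. Its 3 libraries at day 0 held 61.9, 50.8 and 64.1 CPM. They held 64.4, 77.8 and 113 CPM at day 1, 96.8, 83.0 and 127 CPM at day 2, and 127, 80.0 and 127 CPM at day 3. At day 7 the values were 118, 203 and 156 CPM, at day 14 they were 104, 96.0 and 139 CPM, and at day 28 they were 73.1, 73.0 and 89.0 CPM. In deposited CPM every later library lay above every day 0 library, although at day 1 the lowest exceeded the highest of day 0 by little. After TMM scaling, that lowest library fell below the highest of day 0. The widest spreads were those of day 7 (159 ± 42.9 CPM, mean ± SD, n = 3) and day 3, where replicate 2 stood below the other 2 libraries. Ordered by mean, the days ran 7, 14, 3, 2, 1, 28 and 0. All neighbours in that order overlapped except days 28 and 0.

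The rise of miR-34a-5p over day 0 was 1.28 on the log2 scale at day 7 (SE 0.21, adjusted p = 4.52e-05) and 0.87 at day 14 (adjusted p = 0.00257). Both were called in every alternative run. It had risen by 0.58 at day 2 (adjusted p = 0.0341) and by 0.70 at day 3 (adjusted p = 0.0101). At day 1 the difference was 0.41 and did not pass (adjusted p = 0.171), and it was 0.13 when day 1 replicate 3 was left out. At day 28 it was 0.49, with a 95% interval of 0.04 to 0.93 and an adjusted p of 0.158, and with day 0 and day 28 alone in the fit it passed (0.44, adjusted p = 0.0357). The day 2 call was lost without low-read filtering (adjusted p = 0.0605), without day 0 replicate 1 (0.0636) or 2 (0.0902) and without day 2 replicate 1 (0.0627) or 3 (0.153), and the day 3 call without day 3 replicate 1 (0.0545).

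miR-34c-5p was the most abundant member. At day 0 it ranked between 100 and 112 among the 1125 miRNAs of a library. Its day 0 libraries held 184, 217 and 251 CPM, followed by 255, 219 and 294 CPM at day 1 and 309, 329 and 338 CPM at day 2. Days 3 and 7 held the highest values, 351, 351 and 369 CPM and then 391, 387 and 331 CPM. Day 14 held 294, 272 and 343 CPM, and day 28 held 205, 207 and 237 CPM. Days 1 and 28 overlapped day 0, while all libraries of days 2, 3, 7 and 14 lay above it. The order by mean was 7, 3, 2, 14, 1, 0 and 28, in which only days 3 and 2 did not overlap as neighbours.

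In the fit, miR-34c-5p rose by 0.39 at day 2 (SE 0.14, adjusted p = 0.0299), 0.54 at day 3 (adjusted p = 0.00354), 0.66 at day 7 (adjusted p = 0.000509) and 0.43 at day 14 (adjusted p = 0.0178). The calls at days 3 and 7 held in every alternative. Day 1 gave 0.15 (adjusted p = 0.467), a value that turned to -0.0098 without day 1 replicate 3, and day 28 gave 0.08 (95% interval -0.21 to 0.38), which turned to -0.06 without day 0 replicate 1. The day 2 call was lost without the filter (adjusted p = 0.0988), without day 0 replicate 1 (0.180) and without any 1 of the day 2 libraries (0.0505, 0.0892 and 0.0624). The day 14 call was lost without the filter (0.0631), with only the days compared (0.0658), without day 0 replicate 1 (0.124) and without day 14 replicate 3 (0.0530).

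miR-34b-5p comes from the same primary transcript as miR-34c-5p and stood far below it. It held 12.1, 17.0 and 14.3 CPM at day 0, 22.9, 18.5 and 25.7 CPM at day 1, and 28.1, 27.6 and 34.3 CPM at day 2. Day 3 held 32.3, 31.4 and 27.9 CPM and day 7 held 25.7, 40.1 and 29.3 CPM. Day 14 held 21.8, 20.2 and 25.9 CPM, and day 28 held 14.4, 13.1 and 18.9 CPM. In deposited CPM days 1 to 14 lay wholly above day 0, and day 28 overlapped it. By mean the days were ordered 7, 3, 2, 14, 1, 28 and 0, with a gap between neighbours at days 2 and 14 alone.

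The rise of miR-34b-5p was 0.82 at day 2 (SE 0.18, adjusted p = 0.00107), 0.86 at day 3 (adjusted p = 0.000564) and 0.96 at day 7 (adjusted p = 0.000172), each called in every alternative. It was 0.57 at day 14 (adjusted p = 0.0147), a call lost without day 0 replicate 1 (0.0858), and 0.17 at day 28 (adjusted p = 0.586). The day 1 rise of 0.51 (adjusted p = 0.0418) depended on the settings. It was lost with edgeR (adjusted p = 0.0671), DESeq2 (0.0757), no filter (0.0730) and only the days compared (0.116), and without day 0 replicate 1 (0.178) or 3 (0.10) or day 1 replicate 1 (0.0851) or 3 (0.212). How reads that fit both miR-34b-5p and miR-34c-5p, whose sequences are close, were assigned is not given in the sources used here, so the split between these 2 rows is uncertain. None of the 5 members shared an identical row of reads with another miRNA.

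The 3p arms of the same transcript, miR-34b-3p and miR-34c-3p, were scarce and had their highest means at day 3. miR-34c-3p held 2.58, 2.38 and 4.20 CPM at day 0, 7.47, 11.3 and 6.26 CPM at day 1, and 6.83, 11.0 and 8.70 CPM at day 2. It held 9.76, 10.9 and 9.98 CPM at day 3, 6.37, 5.30 and 10.4 CPM at day 7, and 4.73, 5.78 and 9.82 CPM at day 14. By day 28 the values were 4.09, 3.78 and 3.15 CPM. All libraries of days 1 to 14 lay above day 0, and day 28 overlapped it. In the order of means, 3, 2, 1, 7, 14, 28 and 0, only days 14 and 28 were neighbours without overlap.

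miR-34c-3p was the only member called at day 1 in every alternative. Its rise over day 0 was 1.13 at day 1 (SE 0.24, adjusted p = 0.00162), 1.12 at day 2 (adjusted p = 0.000836), 1.34 at day 3 (adjusted p = 0.000127), 0.94 at day 7 (adjusted p = 0.0027) and 0.88 at day 14 (adjusted p = 0.0059). All 5 of these calls held in every alternative. Day 28 gave 0.30 (95% interval -0.21 to 0.80, adjusted p = 0.466).

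miR-34b-3p held 4.90, 5.61 and 6.16 CPM at day 0, 11.0, 8.83 and 10.4 CPM at day 1, and 8.19, 11.2 and 7.65 CPM at day 2. Day 3 held 14.2, 11.8 and 8.65 CPM, day 7 held 7.40, 8.57 and 7.99 CPM, and day 14 held 7.10, 8.99 and 11.6 CPM. At day 28 it held 6.25, 6.01 and 6.64 CPM, overlapping day 0, above which all libraries of days 1 to 14 lay. The order of means was 3, 1, 14, 2, 7, 28 and 0, and only days 7 and 28 were neighbours without overlap. It rose by 0.68 at day 1 (SE 0.19, adjusted p = 0.0124), 0.75 at day 3 (adjusted p = 0.00294) and 0.58 at day 14 (adjusted p = 0.0189). The differences at day 2 (0.43, adjusted p = 0.0788), day 7 (0.36, adjusted p = 0.124) and day 28 (0.23, adjusted p = 0.477) did not pass.

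Of the miR-34b-3p calls, that of day 3 held in every alternative. Leaving out day 0 replicate 1 ended the day 1 call (adjusted p = 0.0605), as did leaving out day 1 replicate 3 (0.0542). The day 14 call was lost with no filter (0.0772), DESeq2 (0.0736) and only the days compared (0.0699), and without day 0 replicate 1 (0.0820) or day 14 replicate 3 (0.0855). The day 2 difference passed with library totals (0.60, adjusted p = 0.0170) and when day 2 replicate 3 was left out (0.56, adjusted p = 0.0463). The F test of this member was lost with no filter (0.0822), with DESeq2 (0.0602) and without day 0 replicate 1 (0.0720). Replicate 1 of day 0 held the lowest values of that day for miR-34b-5p, miR-34b-3p and miR-34c-5p. Without it, 1 of the 5 members was called at day 1, 2 at day 2 and 2 at day 14.

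By the count of libraries alone, in deposited CPM, 4 members at day 1 had each library above each day 0 library. All 5 did so at days 2, 3, 7 and 14, and 1, miR-34a-5p, at day 28. The same held for 23.2%, 38.7%, 38.1%, 36.4%, 27.6% and 17.4% of all tested miRNAs at days 1, 2, 3, 7, 14 and 28. After TMM scaling, miR-34a-5p and miR-34b-5p overlapped day 0 at day 1. The shares of all miRNAs were not counted on that scale.

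**Figure D2:**
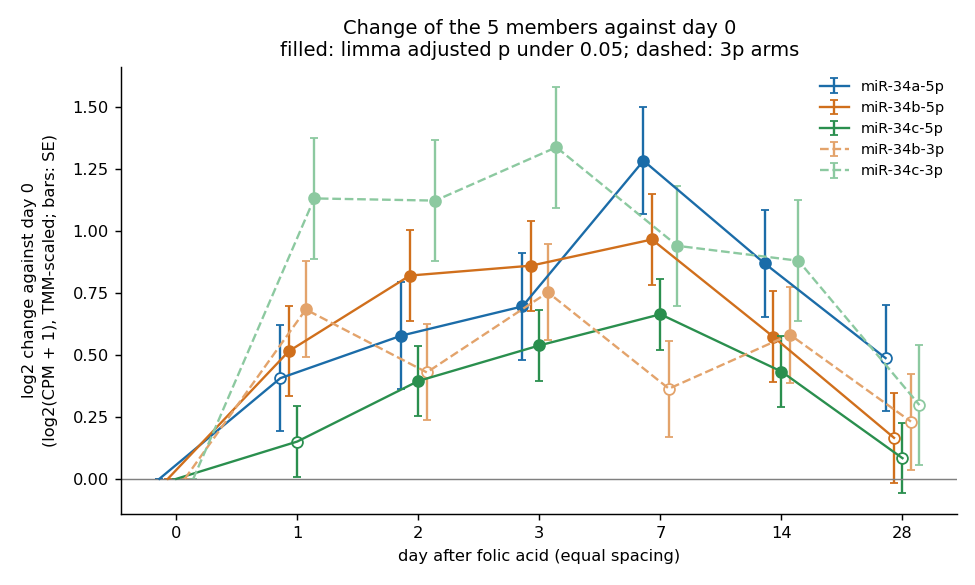
Log2 change of each member against day 0 (vertical axis, log2(CPM + 1) after TMM scaling) by day after folic acid (horizontal axis, equal spacing), with bars for the SE of the fit. Points are filled where the adjusted p of limma was under 0.05, and dashed lines are 3p arms. miR-34c-3p is at 1.13 by day 1, when miR-34c-5p is at 0.15, and miR-34a-5p reaches 1.28 at day 7.

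The steps between neighbouring days, which do not use day 0, passed for none of the 5 members in any of 5 steps with limma, edgeR or DESeq2. Of all miRNAs, 2.78%, 5.34%, 1.86%, 4.41% and 12.3% changed in these steps. At an unadjusted p under 0.05 stood miR-34a-5p at day 7 against day 3 (0.59, adjusted p = 0.148; 16.2% of all miRNAs) and miR-34b-5p at day 14 against day 7 (-0.39, adjusted p = 0.256; 17.6% of all). At day 28 against day 14, where this held for 31.3% of all miRNAs, the same was true of miR-34b-5p (-0.41, adjusted p = 0.130), miR-34c-5p (-0.35, adjusted p = 0.101) and miR-34c-3p (-0.58, adjusted p = 0.110). With library totals in place of TMM, miR-34c-5p passed in that last step (-0.48, adjusted p = 0.0190), a scaling that moved the median of all miRNAs by -0.12.

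The mean of days 7, 14 and 28 was also set against that of days 1, 2 and 3 (late against early). miR-34c-3p fell by 0.49 on the log2 scale (adjusted p = 0.00867), in every alternative. miR-34a-5p rose by 0.32 (adjusted p = 0.048), so 1 member was higher and 1 lower, where 19.7% and 17.6% of all miRNAs were. The call of miR-34a-5p rested on the settings: it was lost with library totals (0.19, adjusted p = 0.277), RLE scaling (0.0649), no filter (0.0926), edgeR (0.0624), DESeq2 (0.0766) and only the days compared (0.0633), and without any 1 of 12 of the 18 libraries (adjusted p from 0.0543 to 0.115). These were replicates 1 and 2 of day 1, 1 and 2 of day 2, 2 of day 3, 2 and 3 of day 7, 1 and 3 of day 14, and all 3 of day 28. The other members did not pass, with -0.16 for miR-34b-5p (adjusted p = 0.262), -0.23 for miR-34b-3p (adjusted p = 0.123) and 0.03 for miR-34c-5p (adjusted p = 0.795). With library totals miR-34b-5p (-0.29, adjusted p = 0.0350) and miR-34b-3p (-0.35, adjusted p = 0.0184) passed as lower, and miR-34c-5p turned to -0.10. Without day 3 replicate 3, miR-34b-3p also passed (-0.29, adjusted p = 0.0397), and without day 1 replicate 2 the value of miR-34c-5p was -0.03.

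The sum of the 5 members was 299 ± 37.8 CPM at day 0, 576 ± 59.6 CPM at day 7 and 320 ± 29.9 CPM at day 28 (SD, n = 3). miR-34c-5p made up 72.4% ± 2.75 of that sum at day 0 and 64.4% ± 6.04 at day 7. miR-34a-5p made up 19.8% ± 3.13 and 27.4% ± 5.28 on the same days, and miR-34b-5p 4.86% and 5.46%. These shares describe read abundance. Ligation bias between sequences in small RNA libraries means that they need not equal shares of molecules.

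Ratios between 2 members were taken within a library as log2 ratios of CPM + 1, in which the added 1 weighs on the scarce 3p arms, and 5 ratios were tested with exact two-sided permutation tests in 10 comparisons, adjusted together. None passed. The tests swap single libraries and ignore the days they share, so their p-values may be too small. The ratio of miR-34c-3p to miR-34c-5p, the arms of a single precursor, was -5.77 ± 0.22 on the log2 scale at day 0 (SD, n = 3) and -5.21 ± 0.44 over the 18 later libraries, a difference of 0.56 (exact permutation p = 0.0511, adjusted p = 0.128). Between the late and early days it differed by -0.50 (exact permutation p = 0.00872, adjusted p = 0.0872), and it passed without day 7 replicate 3 (-0.579, adjusted p = 0.0226) or day 14 replicate 3 (-0.563, adjusted p = 0.0424). In plain CPM the 3p arm stood at a mean of 0.0139 of the 5p arm at day 0, 0.0341 at day 1, 0.0286 at day 3 and 0.0172 at day 28. At day 1 the 3 libraries spread from 0.0213 to 0.0516.

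The ratio of miR-34c-5p to miR-34a-5p, members from the 2 loci, averaged 3.72 in CPM at day 0, 2.45 at day 7 and 2.77 at day 28. On the log2 scale the later libraries differed from day 0 by -0.34 (exact permutation p = 0.0767, adjusted p = 0.153) and the late from the early by -0.29 (exact permutation p = 0.0350, adjusted p = 0.117). The ratio of miR-34b-3p to miR-34a-5p differed by -0.54 between late and early (exact permutation p = 0.0198, adjusted p = 0.0991) and by -0.22 between later days and day 0 (exact permutation p = 0.465, adjusted p = 0.607). For miR-34b-3p to miR-34c-5p the differences were 0.12 against day 0 (exact permutation p = 0.546, adjusted p = 0.607) and -0.25 late against early (exact permutation p = 0.104, adjusted p = 0.173). For miR-34b-5p to miR-34b-3p they were 0.15 (exact permutation p = 0.495, adjusted p = 0.607) and 0.06 (exact permutation p = 0.739, adjusted p = 0.739).

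**Figure D3:**
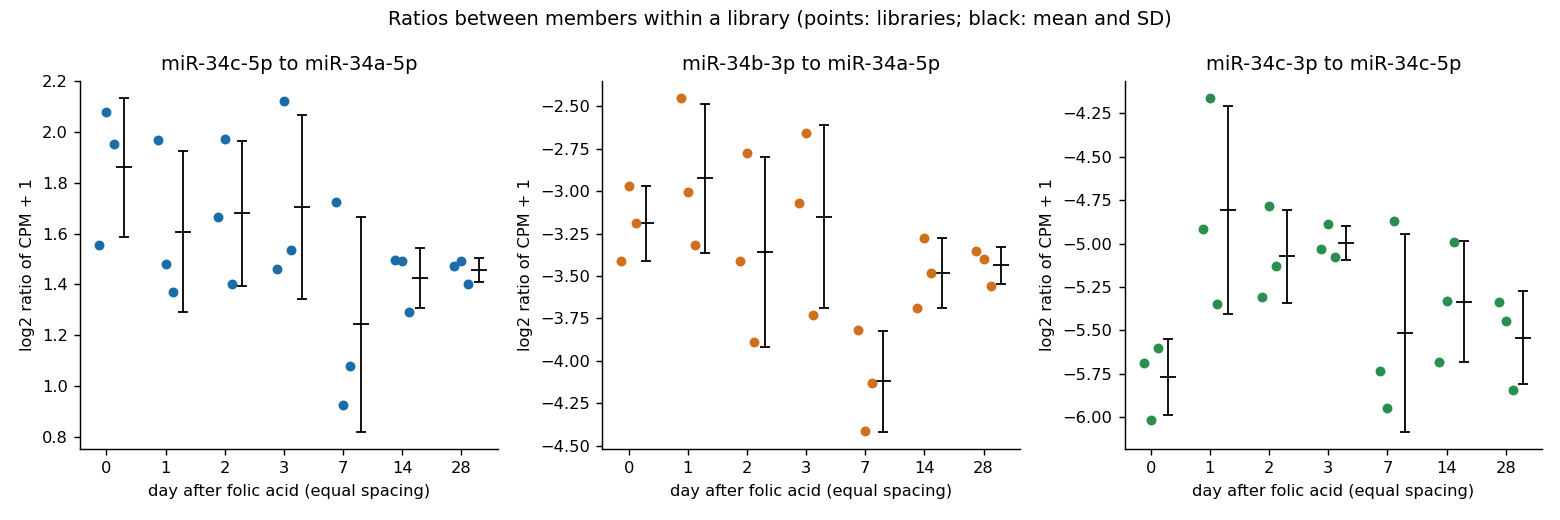
Log2 ratio of CPM + 1 within a library (vertical axes, not starting at 0) for 3 pairs of members by day after folic acid (horizontal axes, equal spacing), with a point per library and black bars for mean and SD. The ratio of miR-34c-3p to miR-34c-5p has its lowest mean at day 0 (-5.77), and both ratios to miR-34a-5p have theirs at day 7.

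Across the 7 day means of log2(CPM + 1), miR-34b-5p and miR-34c-5p were the most alike pair of members (r = 0.93), followed by the 2 arms with the 3p seed, miR-34b-3p and miR-34c-3p (r = 0.91). The least alike were miR-34a-5p and miR-34b-3p (r = 0.41). Deviations of the 21 libraries from their day means correlated between -0.44 and 0.64, the highest value again being that of miR-34b-5p with miR-34c-5p. The points share libraries and depth, and these coefficients are descriptive. For miR-34b-5p with miR-34c-5p the uncertain split of reads between the rows also bears on the value.

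Among 290 other miRNAs averaging 10 CPM or more, those whose day means followed miR-34a-5p most closely were miR-182-5p (r = 0.97), miR-3096-3p (0.96) and let-7i-3p (0.94). For miR-34b-5p they were let-7i-5p, miR-106b-3p and the myeloid miRNA miR-223-3p (0.97 each). For miR-34c-5p they were miR-130b-3p (0.96), miR-17-3p (0.96) and let-7i-5p (0.95). The nearest to miR-34b-3p were miR-23b-3p (0.96), let-7b-5p (0.93) and miR-574-3p (0.91), and to miR-34c-3p they were miR-212-3p (0.97), miR-28-3p (0.96) and let-7c-5p (0.96). At the other end stood miR-3073b-5p for miR-34a-5p (-0.97), miR-30a-5p, a kidney miRNA, for miR-34b-5p (-0.99), miR-1843-5p for miR-34b-3p (-0.92), miR-378-3p for miR-34c-5p (-0.98) and miR-1843b-5p for miR-34c-3p (-0.995). Each coefficient rests on 7 day means and was picked as an extreme.

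The miR-449 miRNAs carry the 5p seed of the family, which is shown for comparison in the members found in the RefSeq table.
miR-449a-5p: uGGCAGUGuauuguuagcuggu
miR-449c-5p: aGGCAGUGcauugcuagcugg
They were nearly absent: miR-449a-5p had 1 to 13 reads per library and miR-449c-5p 0 to 8, and miR-449a-3p, miR-449b and miR-449c-3p had none in any library. miR-449a-5p was at 0.26 to 1.12 CPM at day 0 and at 2.03 to 2.26 CPM at day 7, the latter from 8 to 13 reads per library. miR-34a-3p, the other arm of the miR-34a precursor, had 0 to 7 reads. These 6 rows did not pass the filter and were not tested. miR-449a-5p, miR-449b and miR-449c-5p also served as markers of multiciliated epithelium and germ cells, and their sum was between 0.26 and 3.99 CPM in all 21 libraries.

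Other miRNAs reported to be induced by p53, or processed with its help, were counted beside the family. Of 13 names, 12 were in the table and tested, and miR-605-5p was not analysed here. At day 7, 6 of the 12 fell (22.7% of all miRNAs fell) and 1 rose (29.7% of all rose). The falls were those of miR-107-3p (-1.02, SE 0.14), miR-203-3p (-0.997), known from epithelial differentiation, miR-215-5p (-0.96), miR-192-5p (-0.87), miR-194-2-5p (-0.70) and miR-22-3p (-0.58). miR-200c-3p, which maintains the epithelial state, rose by 0.61. These 7 calls held in all 16 alternatives. miR-192-5p and miR-194-2-5p are also in the list of kidney markers.

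The same list had 1 higher and 5 lower at day 1 (11.1% of all miRNAs fell), 1 and 6 at day 2 (19.0%), 2 and 6 at day 3 (19.0%), and 2 and 6 at day 14 (17.9%). Of all miRNAs, 14.2%, 24.4%, 30.4% and 25.1% rose on these days. At day 28 the list had 1 higher and 0 lower, beside 11.1% and 1.86% of all miRNAs. The 1 higher was miR-200c-3p (0.48), a call lost in 7 of 16 alternatives. Over the alternatives the number lower ran from 1 to 5 at day 1, 5 to 7 at day 2, 4 to 7 at day 3, 6 to 7 at day 14 and 0 to 3 at day 28. The number higher ran from 0 to 1 at day 1 and from 0 to 2 at days 2 and 28. At days 3 and 14 it ran from 1 to 2. miR-145-5p, a smooth muscle miRNA, rose by 0.85 at day 14, in all 16 alternatives. Its rises at day 1 (0.78) and day 3 (0.65) were lost in 4 and 5 of 16 alternatives. The median change of the 12 was -0.24, -0.35, -0.33, -0.42, -0.49 and -0.24 at days 1, 2, 3, 7, 14 and 28. Late against early gave 3 higher and 2 lower of 12, beside 19.7% and 17.6% of all miRNAs, and day 28 against day 14 gave 6 higher and 0 lower, where 4.64% of all miRNAs rose, with 0 to 6 higher over the alternatives.

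**Figure D4:**
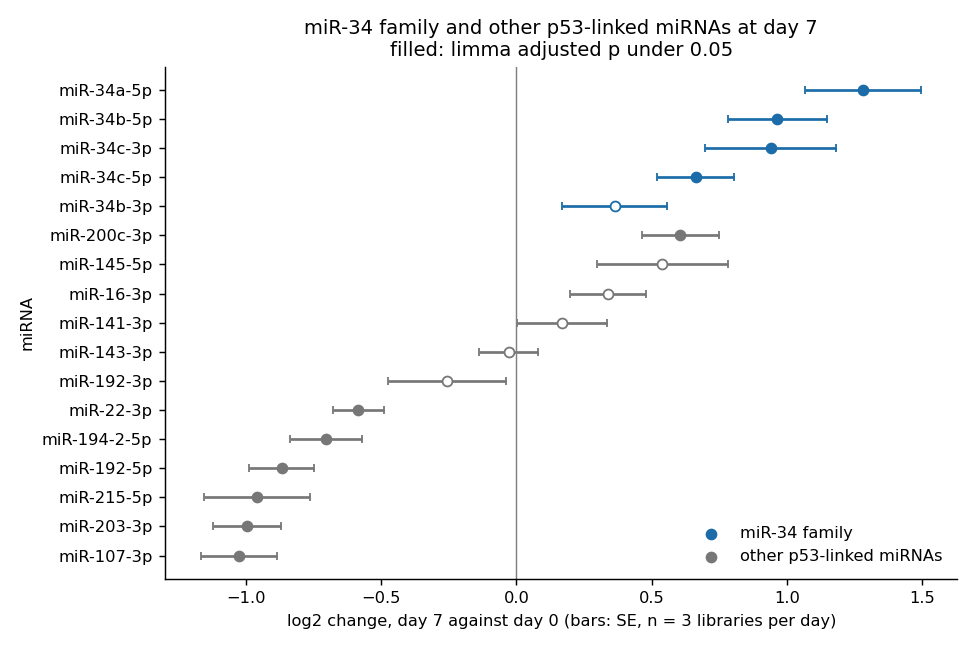
Log2 change at day 7 against day 0 (horizontal axis) with the SE of the fit for the 5 miR-34 members (blue) and 12 other p53-linked miRNAs (grey), 3 libraries per day. Filled points passed limma at an adjusted p under 0.05. The family spans 0.36 to 1.28, and 6 of the 12 others lie between -1.02 and -0.58.

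Another list held 6 miRNAs reported to act on the p53 transcript, of which 5 were tested, miR-504-5p having 0 to 5 reads per library. miR-25-3p rose at day 2 (0.62), day 3 (0.62), day 7 (0.60) and day 14 (0.38), the last call ending with only the days compared (adjusted p = 0.107) or when day 0 replicate 3 (0.0675) or day 14 replicate 3 (0.0567) was left out. miR-33-5p fell on every later day, with changes from -0.54 at day 14 to -0.85 at day 7, and stood at -0.74 at day 28 (adjusted p = 0.0046). Its day 14 call ended when day 0 replicate 1 (0.0645) or day 14 replicate 2 (0.0543) was left out. miR-30d-5p (-0.45, -0.37 and -0.34) fell at days 2, 3 and 7, and miR-125b-5p (-0.39) fell at day 3, while miR-125a-5p did not pass on any day. The miR-125b-5p call was lost with library totals (-0.20, adjusted p = 0.318), no filter (0.0707) and only the days compared (0.131), and when day 0 replicate 3 (-0.14, 0.345), day 3 replicate 1 (0.0690) or day 3 replicate 3 (0.0936) was left out. For miR-30d-5p the day 3 call ended with library totals (-0.19, adjusted p = 0.0702) or day 0 replicate 2 left out (0.0513), and the day 7 call with only the days compared (0.0735) or day 0 replicate 2 (0.118), day 7 replicate 2 (0.171) or day 7 replicate 3 (0.0716) left out. By day the counts higher and lower were 0 and 1, 1 and 2, 1 and 3, 1 and 2, 1 and 1, and 0 and 1. On the same days 14.2%, 24.4%, 30.4%, 29.7%, 25.1% and 11.1% of all miRNAs rose. Falls made up 11.1%, 19.0%, 19.0%, 22.7%, 17.9% and 1.86% of all miRNAs. Over the alternatives the number lower ran from 1 to 4 at day 3 and from 1 to 3 at day 7.

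Markers of other cell types moved over the same days. The 5 leukocyte miRNAs summed to 896 to 1155 CPM at day 0, 1358 to 1479 at day 1, 1663 to 1765 at day 2, 2084 to 2916 at day 3, 2286 to 3374 at day 7, 2132 to 2488 at day 14 and 1701 to 1904 at day 28. Of these 5, 4 rose at days 1, 2 and 3 and 3 rose at days 7, 14 and 28. Of all miRNAs, 14.2%, 24.4%, 30.4%, 29.7%, 25.1% and 11.1% rose on these days. The miR-142-5p call at day 1 was lost in 4 of 16 alternatives (adjusted p up to 0.155). miR-150-5p (-0.66) fell at day 2, where 19.0% of all miRNAs fell. That fall was lost with library totals (adjusted p = 0.0662) or when day 0 replicate 3 (0.0614) or day 2 replicate 1 (0.0589) was left out. The 3 mesenchymal miRNAs summed to 1754 to 2355 CPM at day 0, 1785 to 2471 at day 1, 2416 to 2814 at day 2, 3511 to 3959 at day 3, 5639 to 6256 at day 7, 5041 to 9407 at day 14 and 3634 to 4661 at day 28, and all 3 were higher from day 3 on. At day 28 the sums of both lists lay above those of day 0. The part of these cells in the levels of the miR-34 family was not tested.

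The 3 erythroid miRNAs summed to a median of 2959 CPM at day 0, 9272 at day 2 and 1305 at day 3. The libraries ranged from 1230 to 3187, 5350 to 10141 and 1200 to 1884 CPM, so days 0 and 3 overlapped. The 2 endothelial arms of miR-126 summed to a median of 13729 CPM at day 0 and 11301 at day 7. Both fell at days 2, 3, 7 and 14, where 19.0%, 19.0%, 22.7% and 17.9% of all miRNAs fell. At days 3 and 14 the number lower ran from 0 to 2 over the alternatives. The miR-126-5p call was also lost in 4 of 16 alternatives at day 2 (adjusted p up to 0.279) and in 1 at day 7 (0.0570). The 6 kidney miRNAs had a median sum of 436012 CPM at day 0, 376987 at day 2 and 456441 at day 28. In order of the later days, 0, 0, 1, 1, 2 and 1 rose, beside 14.2%, 24.4%, 30.4%, 29.7%, 25.1% and 11.1% of all miRNAs. In the same order 4, 4, 4, 3, 3 and 0 fell, beside 11.1%, 19.0%, 19.0%, 22.7%, 17.9% and 1.86% of all miRNAs. The rises were of miR-204-5p at day 3 (0.38), day 7 (0.61), day 14 (0.67) and day 28 (0.32), and miR-10a-5p at day 14 (0.44). Over 16 alternatives, the day 28 call of miR-204-5p was lost in 11 and that of miR-10a-5p in 6. The day 2 fall of miR-10b-5p was lost in 5. Of 5 miRNAs of liver, neuron and striated muscle, 1 was tested, miR-133a-3p, which fell at day 7 (-1.11). The neuronal miR-124-3p was at 0 in all libraries of days 1, 2, 3, 7 and 28. The share of these cells in the results on miR-34 was likewise not tested.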

How the data were processed

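Small RNA libraries of 21 kidney samples came from Illumina's TruSeq kit for small RNA, per the labels' protocols. CASAVA 1.8 and build mm9 are named in the submitters' processing notes. The authors deposited CPM of reads assigned to miRNAs, and every column has the same total. Aligner, counting tool and annotation: not given in the sources used here. Whole reads were recovered from the CPM steps for 100% of values (tolerance 0.05 of a read). They gave 2875675 to 7110546 reads per library.

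CPM were TMM-scaled (edgeR 4.0.16) and log2(CPM + 1) fitted with limma 3.58.1 (trend) in R 4.3.3 over all 21 libraries with a mean per day, for the 431 miRNAs that filterByExpr kept on the recovered reads (minimum count 10). The test, ratios and named miRNAs (the members, list miRNAs and, per member, the 3 miRNAs of most like and the 1 of least like day means) followed a written rule. Members and lists were chosen with earlier results of these data known. The names miR-194-5p and miR-16-1-3p were matched to older names after the table was seen. The method was tested on simulated data.

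Alternatives were library totals, RLE scaling, pseudocounts of 0.25 and 4, no filter, robust empirical Bayes, a replicate block, edgeR's quasi-likelihood test and DESeq2 1.42.0 on recovered reads, only the days compared, and leaving out each library. The edgeR test on recovered reads is counted among these because the table holds CPM.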

Additional observations from a re-analysis of the deposited data

How the results depend on the processing

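The day 1 count of 3 members was 2 with no filter, edgeR, DESeq2, only the days compared and the replicate block. Without the filter on low reads 2 of 5 members were called at day 2, 3 at day 14 and 1 in late against early. With only the days compared in the fit these were 3 at day 14, 1 at day 28 and 1 in late against early. RLE scaling, edgeR and DESeq2 each called 1 in late against early, and library totals 1 at day 28 against day 14. Leaving out each library in turn gave 1 to 3 called at day 1, 2 to 4 at day 2, 4 to 5 at day 3, 4 at day 7, 2 to 5 at day 14, 0 at day 28, 1 to 3 in late against early and 4 to 5 in the F test. Library totals moved the median of all miRNAs by 0.19 at day 2, 0.18 at day 3, 0.10 at day 7, 0.11 at day 2 against day 1, -0.13 in late against early and -0.12 at day 28 against day 14.

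4 single-member values changed sign, none of them called: miR-34c-5p at day 1 without day 1 replicate 3 (-0.0098, with 0.326 the highest with a library left out), at day 28 without day 0 replicate 1 (-0.0637) and in late against early with library totals (-0.0992) or without day 1 replicate 2 (-0.0266, the highest being 0.0856). Of 445 member values under whole-table settings 419 kept direction and side of the threshold, as did 367 of 405 with a library left out. The ratio of miR-34b-3p to miR-34c-5p against day 0 turned to -0.0317 at a pseudocount of 4. With a library left out, late against early ran from -0.0294 to 0.142 for miR-34b-5p to miR-34b-3p and from -0.579 to -0.404 for miR-34c-3p to miR-34c-5p. The cause of these changes was not tested.

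Replicate numbers did not pair the libraries: 15 of 63 same-numbered pairs correlated above 0.1 in their deviations from day means, and 6 of 21 libraries correlated best with their own number. The replicate block lost miR-34b-5p at day 1 (adjusted p = 0.0503) and changed no other member call. Among all miRNAs, counts that moved by over 1.5 times lay in the day-to-day steps (at day 28 against day 14, 53 became 19 without the filter and 25 with only the days compared; at day 14 against day 7, 19 became 12 and 0; at day 7 against day 3, 8 became 3 without the filter and 21 with DESeq2; at day 3 against day 2, 23 became 9 without it; at day 2 against day 1, 12 became 6 without it and 22 with DESeq2) and, of the comparisons with day 0, in day 28 without day 28 replicate 1 (56 became 37). With a library left out the steps, in the same order, fell to 12 (without day 28 replicate 2), 5 (day 14 replicate 2), 3 (day 7 replicate 2), 6 (day 3 replicate 2) and 2 (day 2 replicate 1), while day 14 against day 7 rose to 57 without day 14 replicate 3 and day 7 against day 3 to 19 without day 7 replicate 3. Few reads left the miR-449 rows untested, and the 3p arms rest on 10 to 80 reads per library.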
